A study of Mus musculus with 12 samples.

Results

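Transcripts of 10 genes known as markers of mesothelial cells were followed in cultured mouse peritoneal macrophages. The genes were Wt1, Myrf, Bcam, Upk3b, Msln, Krt19, Krt8, Krt18, Lrrn4 and Hspg2. They were taken by symbol from the 16920 genes of the count tables, all 10 were present, and all 10 were among the 12064 genes that passed the filter on low counts. The set was chosen by measured values as well as by name: Wt1, Myrf and Bcam had been selected on their lower levels in the libraries labelled KO. The values of the 10 genes that set the KO label against WT are therefore given as a description, with no test.

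RNA had been sequenced as single-end reads on a BGISEQ-500 in 12 libraries, 3 in each of 4 groups. The WT PBS and WT LPS groups came from wild-type mice and the KO PBS and KO LPS groups from Ythdf1-/- mice made with CRISPR/Cas9. YTHDF1 is a protein that reads the RNA mark m6A. All mice were on the C57BL/6 background and 6 to 10 weeks old. The cells had been drawn into the peritoneum with starch broth by the series record, or with thioglycollate by the methods, were cultured overnight, and then received PBS or 1 µg/mL lipopolysaccharide (LPS) for 6 h. No sorting step is named in the sources used here. The replicates are called independent biological samples, but nothing says whether each came from its own mouse, so p-values measure only the spread between these samples.

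Total counts lay between 21546274 and 22017005 per library. Levels are given as CPM, the normalised read count on TMM-scaled library sizes. The floor used here, 3 counts in a library, equalled 0.105 to 0.187 CPM. Ythdf1 itself, the targeted gene, lay between 41.9 and 45.0 CPM in WT PBS, from 55.4 to 58.1 CPM in KO PBS, from 194 to 212 CPM in WT LPS, and from 192 to 205 CPM in KO LPS. Its mRNA was thus not lower in the KO-labelled PBS libraries, and these counts did not check the label. Replicate 1 of WT LPS stood apart, at a mean chi-square per gene of 31.6 and 24.6 to replicates 2 and 3, whose own distance was 3.02. Between replicates of the other groups it ran from 2.78 to 15.8.

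The mesothelium is a sheet of flat cells that lines the peritoneal cavity and covers the organs in it. These cells rest on a basement membrane, keep both keratin filaments and features of connective tissue cells, and can be shed into peritoneal fluid. WT1 and MYRF are transcription factors at work in them, mesothelin (Msln) and uroplakin 3B (Upk3b) are surface proteins used as markers, and perlecan (Hspg2) is a large proteoglycan of basement membranes. Several of the genes are also at work elsewhere: Myrf in the myelin-forming oligodendrocytes, Hspg2 in most basement membranes, and Krt8, Krt18 and Krt19 in simple epithelia.

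The 10 genes together were a trace of the RNA. Their summed level lay between 36.4 and 43.5 CPM in WT PBS, 37.5 and 56.6 CPM in WT LPS, 19.6 and 21.2 CPM for KO PBS, and 18.4 and 27.1 CPM for KO LPS. That was 0.00139% to 0.00547% of a library's counts, or 301 to 1202 counts. A set of 10 general macrophage genes summed to between 17500 and 20100 CPM in the same libraries. Of 27 further mesothelial genes in the tables, 17 passed the filter, with up to 51 counts in a library for Upk1b, 60 for Gata4 and 203 for Prg4, and 4 never exceeded 3 counts. Among those 4 were the defining markers Muc16 (the CA125 mucin), with at most 1 count in any library, and Calb2 (calretinin), with at most 2. In bulk samples, fewer cells of a type and less RNA per cell cannot be told apart.

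Promoter sequences are shown for the genes that were lower in every KO PBS library than in every WT PBS library, where the reference table held an entry, since this is the pattern the genes were gathered for. The set of RefSeq promoters used here (build GRCm38.p6) held entries for 6 of the 10 genes, and 4 of those 6 had the pattern. Wt1 and Myrf, which also had the pattern, were missing from that set. Each sequence below is the 250 bases before a RefSeq transcript start, written 5′ to 3′ on the strand of the gene, with matches to the motifs searched in capitals. Bcam, which codes for a cell surface receptor of laminin, lies on the minus strand, and its stretch is chr7:19770533-19770782.
Bcam: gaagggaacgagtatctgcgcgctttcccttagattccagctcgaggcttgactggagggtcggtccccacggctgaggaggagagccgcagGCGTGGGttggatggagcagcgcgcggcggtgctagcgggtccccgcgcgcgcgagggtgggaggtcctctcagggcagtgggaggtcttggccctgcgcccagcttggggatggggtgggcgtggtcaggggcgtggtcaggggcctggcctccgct
For Hspg2, on the plus strand, the stretch is chr4:137468553-137468802, and its end lies inside the gene's annotated span, which starts at 137468751.
Hspg2: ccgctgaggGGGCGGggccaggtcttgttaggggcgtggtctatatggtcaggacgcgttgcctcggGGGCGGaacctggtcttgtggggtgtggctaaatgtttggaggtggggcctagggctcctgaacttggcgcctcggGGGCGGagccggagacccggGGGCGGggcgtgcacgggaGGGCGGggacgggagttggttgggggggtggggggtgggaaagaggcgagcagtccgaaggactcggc
The stretch of Upk3b, on the plus strand, is chr5:136038246-136038495.
Upk3b: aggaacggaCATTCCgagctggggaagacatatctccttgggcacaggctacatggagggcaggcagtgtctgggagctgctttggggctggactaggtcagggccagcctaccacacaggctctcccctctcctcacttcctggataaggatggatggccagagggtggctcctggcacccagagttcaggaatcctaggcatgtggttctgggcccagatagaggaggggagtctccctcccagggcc
Lrrn4, which codes for a leucine-rich repeat membrane protein, lies on the minus strand with its stretch at chr2:132880863-132881112, inside the gene's annotated span.
Lrrn4: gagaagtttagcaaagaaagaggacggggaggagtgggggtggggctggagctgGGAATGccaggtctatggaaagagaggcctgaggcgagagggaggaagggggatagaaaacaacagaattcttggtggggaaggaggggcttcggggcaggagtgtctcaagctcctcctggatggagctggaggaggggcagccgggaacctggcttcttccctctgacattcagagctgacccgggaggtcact
The motifs searched, 4 in all, were read on both strands. GCGTGGG, the core of a site bound by zinc fingers of the EGR and WT1 kind, was in Bcam alone among the 6 and in 4.3% of 32851 promoters. GCGGGGGCG, another site of that kind, was in none of the 6 and in 2.57% of all promoters. CATTCC, a core of TEAD sites (GGAATG on the other strand), was in Upk3b and Lrrn4 and in 12.6% of all. The GC box GGGCGG was in Hspg2 and in 32.7% of all. The promoters of Krt8 and Krt18 held none of the motifs. A match here is a run of letters and not a bound site.

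The transcription factor Wt1 (gene 22431, chromosome 2 from 105126529 to 105173614, plus strand, GRCm38.p6) was read at 3.69, 2.61 and 2.86 CPM in WT PBS and at 2.89, 2.96 and 2.65 CPM in WT LPS. In the libraries labelled KO it was read at 0.910, 1.44 and 0.638 CPM with PBS and at 0.675, 1.10 and 1.31 CPM with LPS. Every WT library was above every KO-labelled library, and within each label the PBS and LPS libraries overlapped. Myrf (gene 225908, chromosome 19 from 10208271 to 10240777, minus strand), a membrane-tethered transcription factor, gave 18.1, 14.6 and 14.4 CPM in WT PBS and 11.6, 8.26 and 7.67 CPM in WT LPS. It gave 5.43, 7.16 and 6.80 CPM in KO PBS and 2.95, 2.94 and 3.42 CPM in KO LPS. The 4 groups of Myrf did not overlap, in the order WT PBS, WT LPS, KO PBS and KO LPS from high to low.

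Bcam (gene 57278, chromosome 7 from 19756138 to 19770532, minus strand), the laminin receptor, was at 1.84, 2.07 and 1.25 CPM in WT PBS and at 3.35, 2.90 and 2.48 CPM in WT LPS. With the KO label it was at 0.350, 0.527 and 0.567 CPM under PBS and at 0.798, 0.796 and 1.31 CPM under LPS. The LPS libraries lay above the PBS libraries of the same label, and the WT libraries above the KO-labelled libraries of the same treatment. Hspg2 (gene 15530, chromosome 4 from 137468751 to 137570630, plus strand), the perlecan of the basement membrane to which such receptors bind, had the same layout. Its levels were 13.2, 9.12 and 12.5 CPM in WT PBS, 29.8, 14.2 and 17.1 CPM in WT LPS, 5.01, 5.34 and 6.06 CPM for KO PBS, and 7.86, 6.31 and 10.6 CPM for KO LPS. The value of 29.8 CPM was that of replicate 1 of WT LPS, the library that stood apart. Hspg2 in WT LPS had the widest spread of any of the 10 genes in any group when set against counting error, with a variance between replicates 59.1 times that of counting.

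Upk3b (gene 100647, chromosome 5 from 136038496 to 136044993, plus strand), a uroplakin of the mesothelial surface, was at 0.796, 0.608 and 0.822 CPM in WT PBS and 0.810, 1.54 and 1.02 CPM in WT LPS. With the KO label it was at 0.490, 0.386 and 0.142 CPM under PBS and 0.982, 0.612 and 1.24 CPM under LPS. The lowest of these, replicate 3 of KO PBS, rested on 4 counts. Msln (gene 56047, chromosome 17 from 25748613 to 25754378, minus strand), the surface protein mesothelin, was at 0.687, 1.07 and 1.25 CPM in WT PBS, 1.21, 1.31 and 1.24 CPM in WT LPS, 1.05, 1.02 and 0.957 CPM for KO PBS, and 1.90, 1.10 and 1.55 CPM for KO LPS. The WT and KO-labelled libraries of Msln overlapped under both treatments. Lrrn4 (gene 320974, chromosome 2 from 132866686 to 132894010, minus strand) was at 1.08, 1.54 and 1.54 CPM in WT PBS, 1.04, 1.14 and 1.13 CPM in WT LPS, 0.980, 1.05 and 0.957 CPM for KO PBS, and 1.23, 1.29 and 0.995 CPM for KO LPS. Its KO PBS libraries lay just under its WT PBS libraries, and its LPS libraries overlapped. The end of Lrrn4 overlaps the end of Crls1 in the annotation, and its deposited values carried decimals in 8 of the 12 libraries, so part of its reads may have been shared between the genes.

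The keratins Krt8, Krt18 and Krt19 build the intermediate filaments of simple epithelia and of mesothelium, with KRT8 and KRT18 as partners in 1 filament. Krt8 (gene 16691, chromosome 15 from 101996711 to 102004342, minus strand) was at 2.35, 2.93 and 2.75 CPM in WT PBS, 3.18, 3.87 and 2.65 CPM in WT LPS, 3.08, 2.56 and 1.59 CPM for KO PBS, and 0.982, 2.02 and 3.36 CPM for KO LPS. Krt18 (gene 16668, chromosome 15 from 102028216 to 102032026, plus strand) was at 1.23, 1.32 and 1.86 CPM in WT PBS, 2.02, 1.94 and 1.07 CPM in WT LPS, 1.86, 1.37 and 1.35 CPM for KO PBS, and 1.60, 1.71 and 2.74 CPM for KO LPS. Krt19 (gene 16669, chromosome 11 from 100140810 to 100145926, minus strand), the least abundant of the 10 in mean CPM over all libraries, was at 0.470, 0.537 and 0.500 CPM in WT PBS, 0.636, 0.342 and 0.508 CPM in WT LPS, 0.700, 0.386 and 0.567 CPM for KO PBS, and 0.307, 0.551 and 0.560 CPM for KO LPS. All 4 groups of each keratin overlapped. Krt8 and Krt18 are neighbours, 23874 bases apart. Within KO LPS, replicate 1 was the lowest for all 3 keratins.

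**Figure D1:**
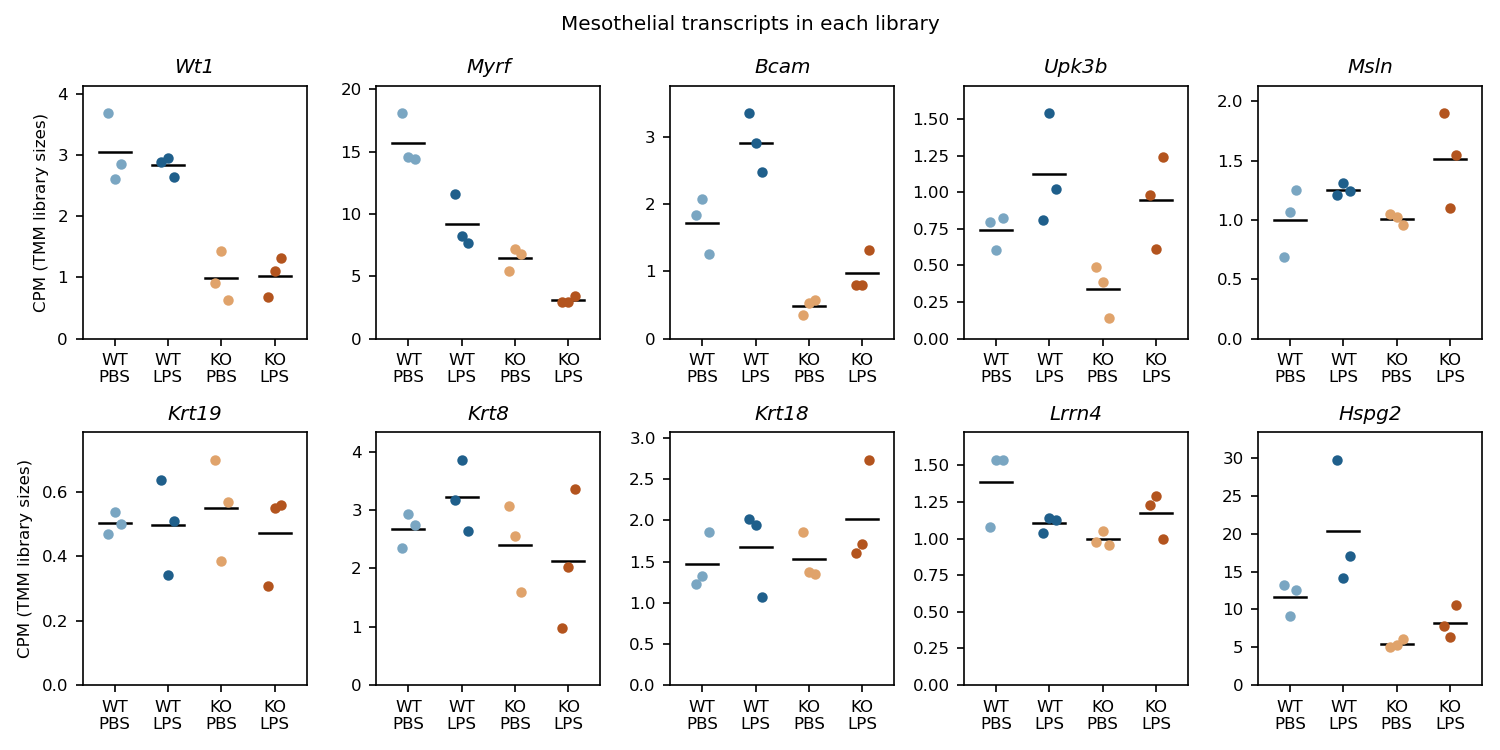
Level of each of the 10 genes (CPM on TMM library sizes, linear axes from 0) in every library, with points for replicates 1 to 3 from left to right and a black line at the group mean. Wt1, Myrf, Bcam and Hspg2 lie lower in the KO-labelled groups under both treatments, and Msln and the 3 keratins overlap between labels.

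Per kilobase of exons, which is the scale on which genes can be compared, the order of the genes differed between the groups. In WT PBS, Myrf was highest with 1.83 ± 0.243 CPM per kb (SD, n = 3), with no overlap with Krt8 at 1.37 ± 0.152. Krt8, Krt18, Hspg2, Bcam and Wt1 followed in that order, each overlapping the next, and Upk3b was lowest at 0.210 ± 0.0330, with no overlap with Krt19 next above it at 0.271 ± 0.0180, though Msln further up reached down into its range. In WT LPS the 5 highest genes (Krt8, Hspg2, Krt18, Myrf and Bcam, from 1.65 down to 0.911 CPM per kb) each overlapped their neighbour, and Wt1 came next at 0.458 ± 0.0262, with no overlap with Bcam above it.

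In KO PBS the keratins led, with Krt8 at 1.23 ± 0.385 and Krt18 at 1.06 ± 0.200 CPM per kb, overlapping each other. Myrf followed at 0.755 ± 0.107, below every Krt18 value but overlapping Krt8. Wt1, Bcam and Upk3b were the lowest in that group, at 0.161, 0.150 and 0.0961 CPM per kb, each overlapping its neighbour. In KO LPS all neighbours overlapped, from Krt18 at 1.40 ± 0.436 to Wt1 at 0.166 ± 0.0520. Among all genes of the tables ranked per length over the 12 libraries, the 10 genes lay between the percentiles 34.5 (Upk3b) and 49.1 (Krt8).

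**Figure D2:**
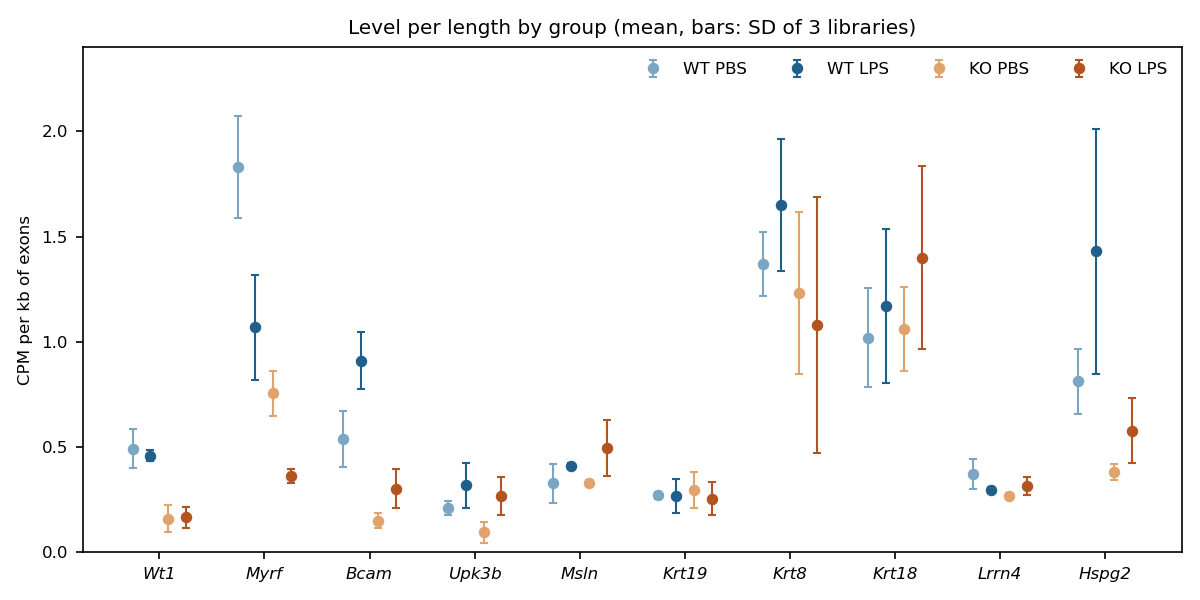
Level per kilobase of exons (CPM per kb, linear axis from 0) for the 10 genes in the 4 groups, with points at the mean and bars of 1 SD over 3 libraries. Myrf is highest in WT PBS at 1.83 CPM per kb, and Krt8 or Krt18 is highest in the other groups.

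The comparison of LPS with PBS asked how these transcripts moved when the cultures met LPS, a contrast that was not used to pick them. In WT, Bcam and Hspg2 rose, Myrf fell, and the other 7 genes did not pass the threshold. The 3 calls of 10 compare with 76.7% of all 12064 genes called in this contrast (36.5% higher and 40.2% lower), a larger share than among the 10. By edgeR's quasi-likelihood test with Benjamini-Hochberg adjustment, Bcam changed by 0.75 ± 0.218 on the log2 scale (log2 fold change ± SE, adjusted p = 0.0048), a 1.69-fold rise seen without overlap in 3 against 3 libraries. Hspg2 changed by 0.81 ± 0.261 (edgeR adjusted p = 0.0155), and Myrf by -0.77 ± 0.141 (edgeR adjusted p = 0.000114), both again without overlap. Genes whose groups did not overlap made up 37.1% (higher) and 41.1% (lower) of all genes.

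In the KO-labelled libraries, Bcam, Upk3b and Msln rose with LPS and Myrf fell. The 4 calls of 10 compare with 79.9% of all genes (38.8% higher and 41.1% lower). Upk3b had the largest change of the 10, 1.46 ± 0.411 on the log2 scale (edgeR adjusted p = 0.00388), a 2.75-fold rise from a mean of 0.339 ± 0.179 CPM (SD, n = 3) to 0.946 ± 0.317 CPM. Bcam changed by 1.00 ± 0.337 (edgeR adjusted p = 0.0126) and Myrf by -1.06 ± 0.192 (edgeR adjusted p = 9.4e-05). The call of Bcam was lost without replicate 1 of KO PBS (0.80, edgeR adjusted p = 0.0511) and without replicate 3 of KO LPS (0.72, edgeR adjusted p = 0.0963). Msln changed by 0.59 ± 0.253 (edgeR adjusted p = 0.0424), the weakest of the calls, which 9 of 20 alternative settings kept. Hspg2 changed by the same 0.59 ± 0.325 and did not pass (edgeR adjusted p = 0.115), although its KO LPS libraries all lay above its KO PBS libraries, and it passed with DESeq2 (0.62, adjusted p = 0.0205) and in an edgeR fit to only the libraries compared (0.59, adjusted p = 0.00458). The groups of 4 genes (Bcam, Upk3b, Msln and Hspg2) were higher and that of Myrf lower without overlap, against 39.7% and 41.6% of all genes.

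Wt1 did not pass in either label. Its log2 fold change with LPS was -0.11 in WT, with a 95% interval from -0.61 to 0.39, and 0.04 in KO, from -0.70 to 0.78. The keratins did not pass in either label on this scaling, while with library totals alone Krt19 (-1.01, edgeR adjusted p = 0.0128) and Krt8 (-0.99, edgeR adjusted p = 0.0097) passed as lower in KO. Their intervals ran from -0.84 to 0.79 (Krt19), -0.41 to 0.95 (Krt8) and -0.45 to 0.82 (Krt18) in WT, and from -1.05 to 0.61, -0.95 to 0.57 and -0.22 to 1.02 in KO. Behind these intervals lay 5 to 88 counts per library and keratin and a spread between replicates. For Krt8 in KO LPS the variance between replicates was 10.9 times that of counting. The median over the 10 genes was 0.23 in WT, beside -0.05 over all genes, and 0.32 in KO, beside -0.04.

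LPS changed the make-up of the libraries, so the direction of these values depends on the scaling. Scaled by library totals alone, the median of all genes moved by -0.66 in WT and by -0.80 in KO, and with upper-quartile scaling by -0.31 and -0.36. Set against the median of all genes, a measure that a change of scaling leaves as it is by construction, Bcam lay 0.80 above it in WT and 1.04 in KO, and Myrf lay below it by -0.72 to -0.73 in WT and -1.02 in KO. With totals alone, the genes called were 3 in WT and 5 in KO, all of them lower, in place of 2 higher and 1 lower in WT and 3 higher and 1 lower in KO. On that scaling Myrf was lower and called in both labels, as was Lrrn4 (-0.99, edgeR adjusted p = 0.000459, in WT and -0.57, edgeR adjusted p = 0.0291, in KO), Wt1 became a called fall of -0.77 in WT (edgeR adjusted p = 0.00333) and -0.75 in KO (edgeR adjusted p = 0.0334), Bcam kept a positive value that was not called (0.09 in WT, 0.20 in KO), and Hspg2 in KO (-0.21), Msln in WT (-0.34) and KO (-0.21), and Upk3b in WT (-0.07) turned negative.

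**Figure D3:**
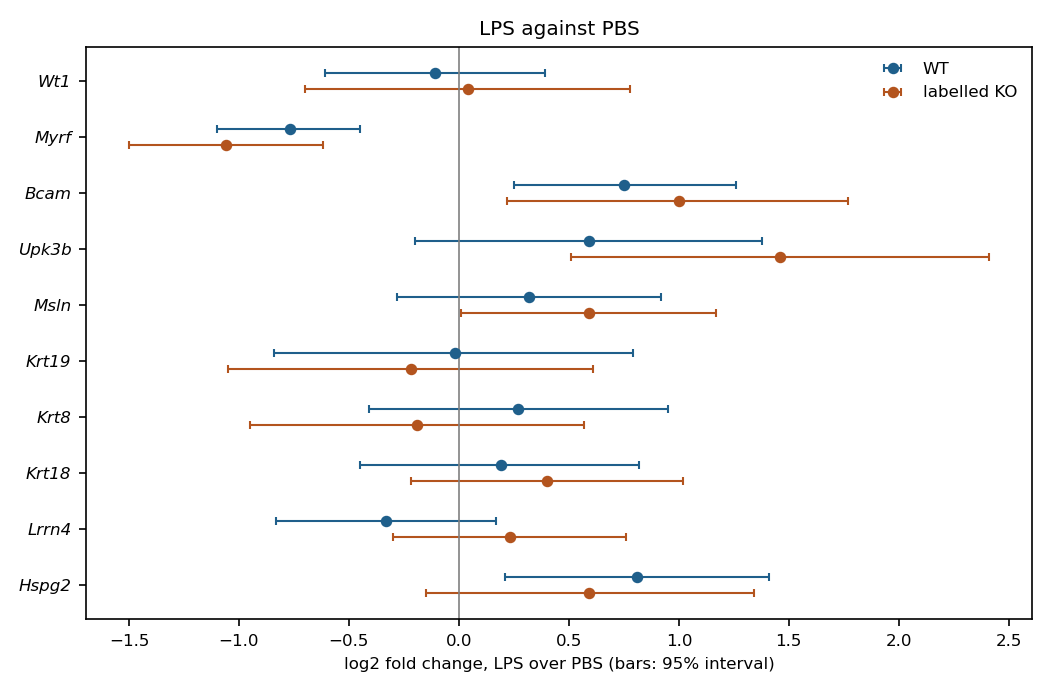
Log2 fold change of LPS over PBS for the 10 genes in WT and KO-labelled libraries, on TMM scaling, with bars of the 95% interval from the edgeR fit. Myrf is below 0 and Bcam above 0 in both labels, and the bars of Wt1, Krt19, Krt8, Krt18 and Lrrn4 span 0; with scaling by library totals alone all values shift down by about the shift of the median gene.

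Without replicate 1 of WT LPS, the WT change of Hspg2 was 0.43 (edgeR adjusted p = 0.0486) in place of 0.81, that of Bcam 0.64 (edgeR adjusted p = 0.0243) and that of Myrf -0.98 (edgeR adjusted p = 9.45e-07). The 3 calls in WT held without it, but the size for Hspg2 rested in large part on this library. The WT call of Hspg2 was lost without replicate 2 of WT PBS (0.66, edgeR adjusted p = 0.0543). With upper-quartile scaling, the calls of Hspg2 (0.49, edgeR adjusted p = 0.0843) and Bcam (0.44, edgeR adjusted p = 0.0684) in WT and of Bcam (0.64, edgeR adjusted p = 0.0841) and Msln (0.23, edgeR adjusted p = 0.399) in KO were lost, and Lrrn4 in WT became a called fall of -0.64 (edgeR adjusted p = 0.014). In KO, Hspg2 passed in the fit without replicate 1 of WT LPS (0.60, edgeR adjusted p = 0.0165).

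Whether LPS acted differently by label was tested as an interaction for the 7 genes whose direction the choice of genes did not state. None of the 7 passed by edgeR, 0 had an unadjusted p under 0.05 (the lowest was 0.0966, for Lrrn4), and DESeq2 called 0 as well. Over all genes, 18.0% passed. The largest difference was that of Upk3b, 0.87 ± 0.535 on the log2 scale (edgeR adjusted p = 0.299), with a 95% interval from -0.37 to 2.10. Lrrn4, with a value of -0.33 in WT and 0.23 in KO, differed by 0.56 ± 0.315 (edgeR adjusted p = 0.253), with an interval from -0.17 to 1.29. The smaller value of Upk3b in WT was thus not shown to differ from that in KO. For the other 3 genes the difference was 0.15 ± 0.388 (Wt1), -0.29 ± 0.242 (Myrf) and 0.24 ± 0.393 (Bcam), given with no test.

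Between the labels under PBS, 6 of the 10 genes were lower in all 3 KO libraries than in all 3 WT libraries, and none was higher in all 3. Such genes made up 24.6% (lower) and 23.5% (higher) of all genes tested, and nothing is read from the count, since the genes were chosen with this contrast in view. Bcam differed most, by -1.83 ± 0.274 on the log2 scale, a level 3.55-fold lower. Wt1 followed with -1.61 ± 0.238 (3.05-fold lower), Myrf with -1.28 ± 0.138, Upk3b with -1.11 ± 0.390, Hspg2 with -1.09 ± 0.289 and Lrrn4 with -0.47 ± 0.201. The other 4 genes overlapped between labels and had values from -0.15 (Krt8) to 0.13 (Krt19), with Msln at 0.01 and Krt18 at 0.05.

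Under LPS, 4 of the 10 genes were lower without overlap and none was higher (21.4% and 24.2% of all genes). These were Bcam (-1.59 ± 0.265), Myrf (-1.56 ± 0.192), Wt1 (-1.46 ± 0.287) and Hspg2 (-1.30 ± 0.293). Without replicate 1 of WT LPS the values were -1.47, -1.36, -1.44 and -0.92. The remaining 6 genes overlapped, and Upk3b and Lrrn4, lower under PBS, had -0.25 ± 0.362 and 0.08 ± 0.243 under LPS. Krt8 had -0.61 ± 0.335, with its KO LPS libraries spread from 0.982 to 3.36 CPM.

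**Figure D4:**
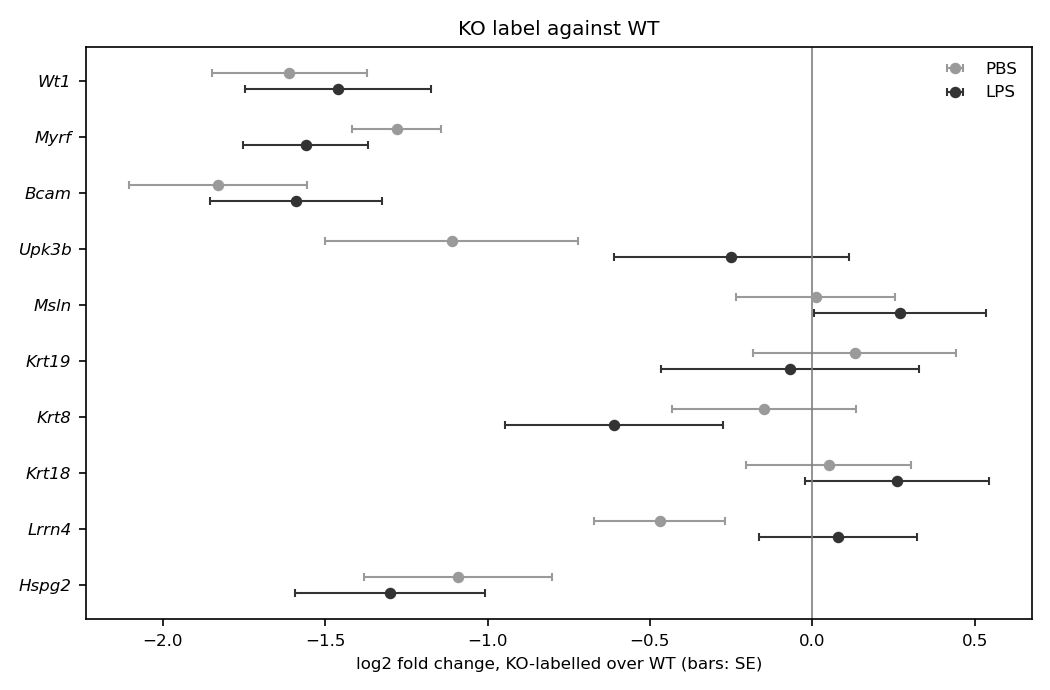
Log2 fold change of KO-labelled over WT libraries for the 10 genes under PBS and under LPS, with bars of 1 SE from the edgeR fit. Wt1, Myrf, Bcam and Hspg2 lie between -1.83 and -1.09 in both treatments, Upk3b and Lrrn4 lie at -1.11 and -0.47 under PBS and at -0.25 and 0.08 under LPS, and Msln, Krt19 and Krt18 lie near 0.

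The mix within the list shifted as well. The ratio of the counts of Wt1, Myrf and Bcam to those of the other 7 genes, which needs no scaling between libraries, lay between 0.871 and 1.19 in WT PBS, 0.461 and 0.579 in WT LPS, 0.508 and 0.754 in KO PBS, and 0.286 and 0.356 in KO LPS. It was lower with LPS in both labels and lower with the KO label in both treatments, without overlap in each case. The first 3 genes are those chosen for their lower level with the KO label, so the part of this that follows the label restates the choice. In every library Myrf had the most counts of the first 3 genes and Hspg2 of the other 7, so these 2 weigh most in the ratio.

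The genes with the nearest pattern were sought for each member, as the root-mean-square difference (RMS) of log2 CPM over the 12 libraries after each gene was centred on its own mean. The nearest to Wt1 were Mgll (RMS 0.265), a lipase of monoacylglycerols, and Scd1 (0.282), a fatty acid desaturase. The mean level of Mgll was 66.8 CPM for WT PBS and 20.0 CPM for KO PBS. The nearest to Myrf were Syn1 (0.154), a synaptic vesicle protein, and Eef1a2 (0.160), a translation elongation factor of neurons and muscle. Syn1 followed Myrf through all 4 groups, at 11.2, 6.74, 4.41 and 2.28 CPM in the order WT PBS, WT LPS, KO PBS and KO LPS. Close to Bcam was Col1a2 (0.306), a chain of collagen I. Those to Upk3b were Yap1 (0.350), a transcriptional co-activator, and Steap2 (0.383), and those to Hspg2 were Ptprf (0.202), a receptor tyrosine phosphatase, and Wfs1 (0.218).

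For the other 5 genes the nearest were Gm32856 (0.144) and Map10 (0.171) for Msln, Recql5 (0.210) and Kptn (0.216) for Krt19, Hand2 (0.301) and Tinagl1 (0.322) for Krt8, Zkscan1 (0.227) and Gprasp1 (0.234) for Krt18, and Tnfrsf12a (0.129) and Nxt1 (0.141) for Lrrn4. None of the 10 genes was among the 2 nearest to another. Within the list the closest pair was Msln and Krt18 (0.334), Bcam and Hspg2 were at 0.398, and Wt1 and Myrf at 0.546. The farthest pair was Myrf and Upk3b at 1.13.

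A further list of 28 genes known from mesothelium was read beside the 10, to see whether the wider programme was there. With LPS, 6 of the 17 tested rose and 2 fell in WT, beside 36.5% and 40.2% of all genes, and 9 rose and 1 fell in KO, beside 38.8% and 41.1% (5 and 4 in each label when scaled by totals alone). Averaged over all libraries, the most abundant of the list were Pdpn (podoplanin, a mucin-type membrane protein that macrophages also make) and Slpi (a secreted inhibitor of leukocyte proteases). Pdpn went from 217 ± 4.03 CPM with PBS to 1540 ± 43.1 CPM with LPS in WT, a log2 fold change of 2.83 (edgeR adjusted p = 2.02e-17), and it rose by 3.90 in KO (edgeR adjusted p = 7.95e-19). Slpi rose by 2.73 in WT (edgeR adjusted p = 2.31e-11) and by 4.55 in KO (edgeR adjusted p = 9.23e-14). Thbd (thrombomodulin, a membrane receptor of thrombin), named after its values were seen, was above Slpi in the PBS groups and moved the other way, from 31.0 to 4.05 CPM in WT (-2.93, edgeR adjusted p = 5.79e-14) and by -3.71 in KO. Upk1b, another uroplakin, was at 1.33 ± 0.152 CPM (WT) and 1.09 ± 0.651 CPM (KO) under PBS, and did not pass with LPS in either label (0.56 and 0.57, edgeR adjusted p = 0.119 and 0.136; with totals alone -0.10 and -0.23).

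Gata4, a transcription factor of mesothelial and other mesodermal cells that was singled out after its values were seen, was at 1.95 ± 0.228 CPM in WT PBS and 0.856 ± 0.0537 CPM in WT LPS. It was at 0.165 ± 0.135 CPM in KO PBS and 0.185 ± 0.00157 CPM in KO LPS, where each library held about 3 counts. Its fall with LPS in WT was -1.18 on the log2 scale (edgeR adjusted p = 0.000659). With the KO label under PBS, 6 of the 17 tested genes of the list were lower and 1 higher past the threshold, beside 13.0% and 12.3% of all genes. Under LPS 4 were lower and 1 higher, beside 19.3% and 22.1% of all genes.

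Genes of the basement membrane and its receptors, the setting of Bcam and Hspg2, were all 26 in the tables and 19 passed the filter. With LPS 8 of the 19 rose and 2 fell in WT (36.5% and 40.2% of all genes), and 9 rose and 3 fell in KO (38.8% and 41.1% of all genes), but scaled by totals alone 4 rose and 6 fell in each label. Syndecan 4 (Sdc4) had the largest change, from 17.9 ± 0.698 to 793 ± 54.5 CPM in WT, 5.46 on the log2 scale (edgeR adjusted p = 1.5e-18), and 6.39 in KO (edgeR adjusted p = 3.6e-19). Agrin (Agrn), a heparan sulphate proteoglycan like perlecan, rose by 2.35 in WT (edgeR adjusted p = 7.25e-09) and by 3.10 in KO (edgeR adjusted p = 2.45e-10). The integrin chain Itgb1, the most abundant of the list over all libraries though below Sdc4 in both LPS groups, rose by 0.76 (edgeR adjusted p = 2.62e-09) and 1.10 (edgeR adjusted p = 1.6e-11), and by 0.10 and 0.30 with totals alone, of which only the second passed.

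Of 18 further keratins and plakins, the linkers of keratin filaments, 15 were in the tables, 6 passed the filter and 6 never exceeded 3 counts. Plec (plectin) and Jup (plakoglobin) were the most abundant, at 269 ± 12.4 and 39.1 ± 0.991 CPM in WT PBS. Krt80 changed by -2.31 on the log2 scale in WT (edgeR adjusted p = 5.38e-12) and by -3.34 in KO (edgeR adjusted p = 5.9e-13), from 24.0 ± 0.110 to 4.84 ± 1.23 CPM in WT. Krt222 was at or under 0.250 CPM in every PBS library and between 4.23 and 5.09 CPM in every LPS library. The 3 keratins of mesothelium did not share either course.

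Markers of other cells of the peritoneal wall moved with some of the 10 genes. The fibroblast list summed to between 75.4 and 89.2 CPM in WT PBS, 130 and 144 CPM in WT LPS, 33.5 and 46.8 CPM for KO PBS, and 68.6 and 84.2 CPM for KO LPS. That is the layout of Bcam and Hspg2. Pdgfrb in that list departed from it, with means of 0.227 CPM in WT PBS, 10.7 CPM in WT LPS, 0.410 CPM in KO PBS and 12.2 CPM in KO LPS. Of its 10 genes, 9 were in the tables and 6 were tested, of which 5 rose with LPS in each label on TMM scaling (36.5% of all genes in WT and 38.8% in KO), but 1 rose and 1 fell with totals alone. With the KO label, 5 were lower under each treatment with all 4 scalings (beside 13.0% of all genes under PBS and 19.3% under LPS). Col1a2, a collagen I chain, averaged 33.3 CPM in WT PBS, 52.8 CPM in WT LPS, 14.3 CPM in KO PBS and 24.3 CPM in KO LPS, and rose by 0.67 in WT (edgeR adjusted p = 1.35e-05). Col1a1 rose by 0.63 (edgeR adjusted p = 0.0073), and with totals alone neither passed (0.00 and -0.04). Lum, a further fibroblast marker, never exceeded 2 counts. The part of fibroblast RNA in the values of Bcam, Hspg2 and the other genes was not tested.

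Smooth muscle markers summed to between 15.1 and 18.9 CPM in WT PBS, 19.6 and 20.9 in WT LPS, 10.9 and 13.6 in KO PBS, and 13.3 and 13.7 in KO LPS, with the defining markers Myh11 and Cnn1 at no more than 2 counts. Of the 4 tested genes, 3 were lower with the KO label under each treatment, beside 13.0% (PBS) and 19.3% (LPS) of all genes, but 2 under PBS with RLE scaling and with totals alone. The other, Tagln, was higher under LPS (1.62, edgeR adjusted p = 0.0043), beside 22.1% of all genes. The most abundant were Acta2 (9.08 CPM over all libraries) and Des (3.51 CPM). Skeletal muscle markers, led by Acta1 and Myh4, lay between 21.6 and 42.9 CPM in the WT libraries and between 0.612 and 0.921 CPM in KO LPS, where all 9 genes were lower than in WT LPS past the threshold. In KO PBS they were at 20.7 and 25.3 CPM in replicates 1 and 2 and at 0.461 CPM in replicate 3. That replicate had 0.638, 6.80 and 0.567 CPM of Wt1, Myrf and Bcam, beside 0.910 and 1.44, 5.43 and 7.16, and 0.350 and 0.527 CPM in the other two. It was the lowest of the 3 for Wt1, Upk3b, Msln, Krt8, Krt18 and Lrrn4. Without it the log2 differences by label under PBS were -1.35 (Wt1), -1.30 (Myrf) and -1.94 (Bcam), Upk3b had -0.73 in place of -1.11, and Krt8 had 0.10 in place of -0.15. The part of muscle RNA in the values was not tested.

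Epithelial markers were close to absent, with 5 of 7 genes in the tables never above 3 counts (Epcam among them, at most 1) and sums of 0.428 to 1.86 CPM, most of it Cdh1 at 0.738 CPM over all libraries. The sums were lower with the KO label without overlap, at 1.27 to 1.86 against 0.886 to 1.02 CPM under PBS and 0.683 to 1.02 against 0.428 to 0.497 CPM under LPS, and Cdh1, the 1 gene tested, was lower under PBS (-0.75, edgeR adjusted p = 0.0489). That call was lost with RLE scaling and with totals alone. Under LPS Cdh1 was called as lower only with upper-quartile scaling and with totals alone. The oligodendrocyte list, relevant to Myrf, had Mobp at 0.0147 CPM over all libraries, and its sum came mostly from Mbp (35.5 CPM) and Mag (6.16 CPM). Mbp was at 55.0 ± 2.0 CPM (WT PBS) and 67.4 ± 1.71 CPM (KO PBS), where Myrf was lower, and its label difference under LPS was -0.11 (edgeR adjusted p = 0.438). With LPS Mbp fell, as Myrf did, by -2.45 in WT (edgeR adjusted p = 7.71e-14) and -2.85 in KO (edgeR adjusted p = 1.11e-14). Mag, the other tested gene of that list, had lower means with the label under both treatments, at 6.05 and 4.83 CPM under PBS (-0.33, edgeR adjusted p = 0.0536) and at 8.26 and 5.51 CPM under LPS (-0.58, edgeR adjusted p = 0.00173). Endothelial markers, led by Vwf (86.6 CPM) and Kdr (41.2 CPM), summed to between 101 and 103 CPM (WT PBS) and to between 126 and 142 CPM (KO PBS), with 1 of 4 tested genes higher and none lower with the KO label under PBS (12.3% and 13.0% of all genes). Tek and Erg, defining endothelial genes, never exceeded 1 count. Of 4 tested genes of resident peritoneal macrophages, 3 were lower with the KO label under each treatment (2 under PBS with totals alone) and 1 was higher under PBS, beside 13.0% lower and 12.3% higher of all genes under PBS and 19.3% lower under LPS. Gata6, their defining transcription factor, differed by -1.30 under PBS (edgeR adjusted p = 0.000201) and Timd4 by -1.93 (edgeR adjusted p = 0.0115). Icam2, the most abundant of the list over all libraries, was the gene higher under PBS (0.50, edgeR adjusted p = 0.0187). Cd209b never exceeded 3 counts. Neutrophil markers, most of it Mmp8, summed to between 104 and 108 CPM (WT PBS) and to between 153 and 156 CPM (KO PBS), and of 3 tested genes 2 were higher with the label under PBS and 3 under LPS (1 with upper-quartile scaling and with totals alone), beside 12.3% and 22.1% of all genes. The neutrophil genes S100a9 and Retnlg were close to absent, with at most 2 and 1 counts in any library. Of 10 general macrophage genes, 3 were lower and 1 higher under PBS, and 5 were lower and 1 higher under LPS. Of the basement membrane genes, 7 of 19 were lower and 1 higher under PBS, and 6 were lower and 4 higher under LPS. In the T cell list 1 of 3 tested genes, Lck, was lower under LPS, and Cd3d, Cd3e and Cd3g never exceeded 2 counts. The 1 tested eosinophil gene, Siglecf, was lower under LPS. The 1 tested mast cell gene, Kit, was lower under PBS and higher under LPS, and Cpa3, Mcpt4, Tpsb2, Cma1 and Ms4a2 never exceeded 3 counts. Over all genes, 13.0% were lower and 12.3% higher with the label under PBS, and 19.3% lower and 22.1% higher under LPS. The part of each of these lists in the values of Wt1, Myrf and Bcam was not tested.

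**Figure D5:**
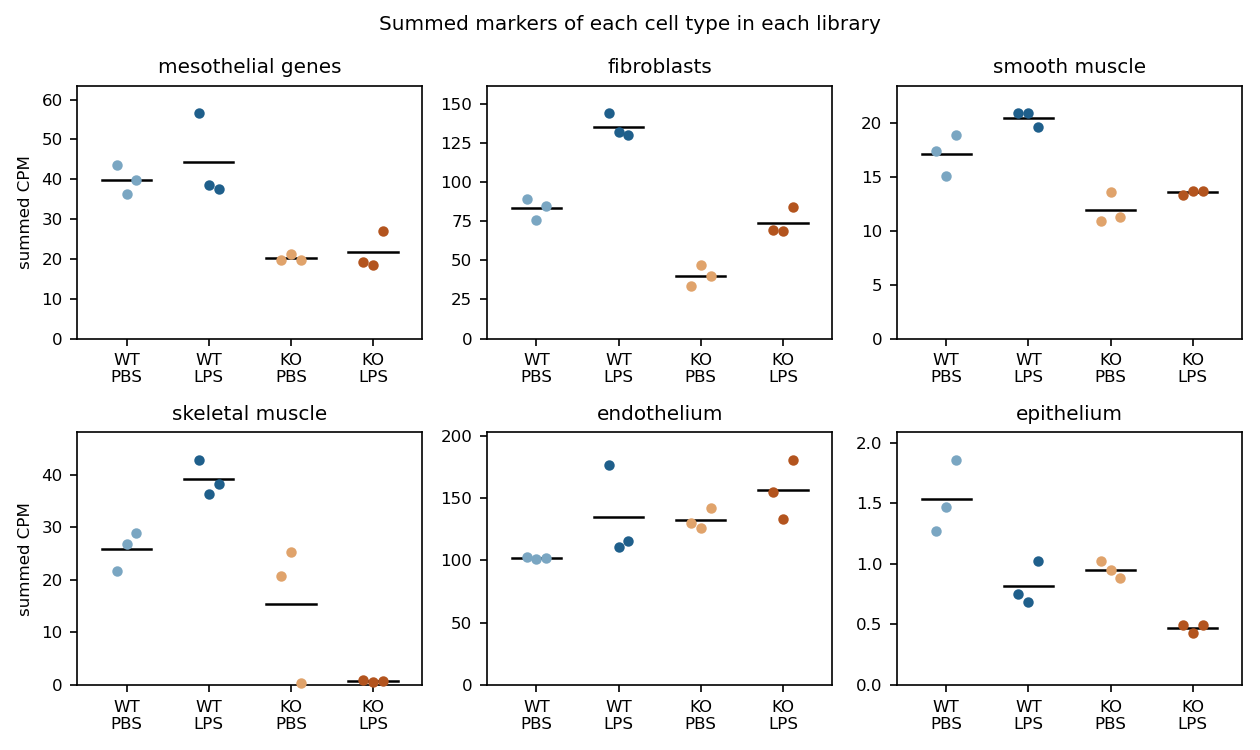
Summed CPM (linear axes from 0) of the 10 mesothelial genes and of the marker lists of 5 other cell types in every library, with points for replicates 1 to 3 from left to right and a black line at the group mean. Fibroblast sums (33.5 to 144 CPM) are lower with the KO label and higher with LPS on this scaling, skeletal muscle sums are under 1 CPM in KO LPS and in replicate 3 of KO PBS, and endothelial sums are not lower with the KO label.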

How the data were processed

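Libraries were grouped by the genotype and treatment in the labels. The authors deposited expected counts, that is estimated reads per gene, with no scaling between libraries. The submitters' processing notes name Bowtie2, RSEM 1.3.1 and build GRCm38.p6, whereas the methods name STAR and HTSeq, and the settings are not given in the sources used here. The values were rounded to whole counts. Reads carried no molecular identifiers, so floors cover counting error only.

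The 10 genes and all marker lists were chosen with earlier results of these data known. Counts were filtered with filterByExpr on the 4 groups, scaled with TMM and fitted in R 4.3.3 with edgeR 4.0.16 (quasi-likelihood, robust, 1 mean per group, all 12 libraries), with two-sided p-values adjusted by Benjamini-Hochberg over 12064 genes and a threshold of 0.05. SE is the size of the log2 fold change over the square root of the F statistic, and intervals cover 95%. The fit was tested on simulated data. Exon lengths and strands came from the GENCODE annotation, which gave a length for 97.0% of the genes. Positions and promoters came from RefSeq. Alternatives were the RLE and upper-quartile scalings, totals alone, no filter or a minimum of 10 counts throughout, DESeq2 1.42.0, fits to the compared groups alone, a block for the replicate number, and each replicate left out. Named besides the 10 genes are the 2 nearest in pattern to each, the 2 most abundant of some of the lists and, for the mesothelial, basement membrane and keratin lists, the 2 called with the largest LPS change at 1 CPM or more. In the remaining lists the 2 most abundant are not both named. Other genes named were chosen after their values were seen, and 2 genes are not reported here.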

Additional observations from a re-analysis of the deposited data

How the results depend on the processing

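Of the 10 genes, Myrf fell with LPS under every alternative in both labels (-1.44 to -0.63 in WT, -1.86 to -0.99 in KO). The number of genes called in KO, 4, was 2 with upper-quartile scaling and ran from 2 to 5 when each replicate was left out (2 without KO PBS replicate 1 or KO LPS replicate 3); in WT, 3, it ran from 2 to 3. With totals alone the 3 calls in WT (Myrf, Wt1 and Lrrn4) and the 5 in KO were all lower. Reversals in WT were Upk3b -0.07, Msln -0.34, Krt8 -0.39 and Krt18 -0.48 with totals alone, Krt8 -0.04 and Krt18 -0.12 with upper-quartile scaling, Krt19 0.02 with RLE and with DESeq2, and, with a replicate left out, Wt1 0.08 (range -0.21 to 0.08) and Krt19 0.03 and 0.18 (range -0.24 to 0.18). Those in KO were Wt1 -0.75, Msln -0.21, Krt18 -0.40, Lrrn4 -0.57 and Hspg2 -0.21 with totals alone, Wt1 -0.31 and Lrrn4 -0.12 with upper-quartile scaling, Wt1 0.00 without a filter and -0.01 with at least 10 counts in every library, and, with a replicate left out, Wt1 -0.20, -0.16, -0.03 and -0.01 (range -0.20 to 0.40), Krt19 0.01 (range -0.43 to 0.01) and Krt8 0.02 and 0.15 (range -0.68 to 0.15). In the interaction, leaving out a replicate reversed Krt19 (0.02 and 0.03, range -0.43 to 0.03), Krt18 (-0.03 and -0.07, range -0.07 to 0.37) and Hspg2 (0.17, range -0.43 to 0.17). The shift of the median gene accounts by construction for the reversals with totals alone, upper-quartile and RLE scaling, and the cause of the others was not tested. Genes lower in all KO libraries numbered 5 to 6 under PBS and 4 to 5 under LPS over all alternatives. Same-numbered replicates of different groups did not deviate together (18 correlations from -0.0758 to 0.127, 1 over 0.1, and 4 of 12 libraries closest to their own number), so the numbers pair nothing. With the replicate block, calls over all genes moved from 9254 to 9267 in WT and from 9635 to 9631 in KO, Msln in KO was 0.59 (edgeR adjusted p = 0.0585) and Hspg2 in KO was 0.58 (edgeR adjusted p = 0.0456). Depth limits Upk3b, Krt19, Bcam and Wt1, with as few as 4, 5, 10 and 11 counts in a library.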
